A study of Mus musculus with 29 samples.

Results

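The comparison described here is that of conditioning lesion against naive cultures of adult mouse cortex at day 2 in culture. It sets against each other 6 of the 29 libraries of the series, chosen by treatment and day in their titles: 3 lesion libraries (treatment "Conditioning lesion") and 3 naive libraries (treatment "None"). Both groups are primary cortical cultures of WT adult C57/BL6 mice labelled as neurons and harvested at day 2. The lesion was made in the living animal the day before plating. Cultures at days 1, 3, 5 and 7 have their own lesion and naive libraries and are described only as context. Whether the authors' fit took its spread from the 6 libraries alone or from all 29 is not given in the sources used here. Standard errors worked out from the p-values matched closely between days 2 and 3 (SD of the log ratio 0.056 at ranks up to 4771). A spread shared between days would give such a match, so libraries of other days are likely to enter the day 2 p-values. The site and kind of the lesion, the sex of the mice and how many animals or cultures stand behind the libraries are not given in the labels. P-values therefore measure only the spread between libraries, which may be technical.

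The data are the day 2 columns of 1 table of the authors' own comparisons, with 5826 genes. A gene has a row if its adjusted p was under 0.1 on at least 1 of the 5 days, and 19085 genes were tested each day. Each row gives a log2 fold change of lesion over naive, a p and a p adjusted by the Benjamini-Hochberg method, from voom and limma. No value per library is in it, so neither levels nor the depth of the libraries can be given. Each standard error printed here was worked out backwards from a fold change and p of the table and adds no information to them. "Rose" and "fell" are used only of genes with an adjusted p under 0.1 at day 2.

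A conditioning lesion is an injury made some time before neurons are asked to regrow an axon, and in sensory neurons of the peripheral nervous system it is known to prime that regrowth. Axon growth draws on the cytoskeleton of the growth cone, on membrane lipid, on local translation and on ATP made in mitochondria. A dissociated culture of adult cortex can also hold oligodendrocytes, endothelial cells, astrocytes, microglia and vessel wall cells beside its neurons.

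At day 2, the genes that rose in lesion cultures included 35 of 79 genes of the respiratory chain, 7 of 41 antioxidant genes, 14 of 27 genes of the nuclear speckle and 10 of 30 long noncoding RNA genes. Those that fell included 16 of 40 oligodendrocyte genes, 13 of 40 endothelial genes, 14 of 48 growth cone and cytoskeletal genes, 7 of 27 cholesterol genes and 8 of 21 hnRNP genes. Of these lists, the speckle, long noncoding RNA and hnRNP groups were chosen after the values were seen. In the authors' deposited table, 1140 genes passed the threshold at day 2, which is 5.97% of the genes tested. Of these, 361 rose (1.89% of the genes tested) and 779 fell (4.08%). The median log2 fold change of the authors' deposited table was 1.05 for the genes that rose, -1.48 for those that fell and -0.10 over all 5826 rows. A log2 fold change of 1 or more was reached by 193 risen genes, and one of -1 or less by 555 fallen genes. At the edge of the threshold, Cdc42ep2 lay just inside with a log2 fold change of -2.40 (adjusted p = 0.09988), and Yy2 just outside with -3.47 (adjusted p = 0.1007) per the authors' deposited table.

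**Figure D1:**
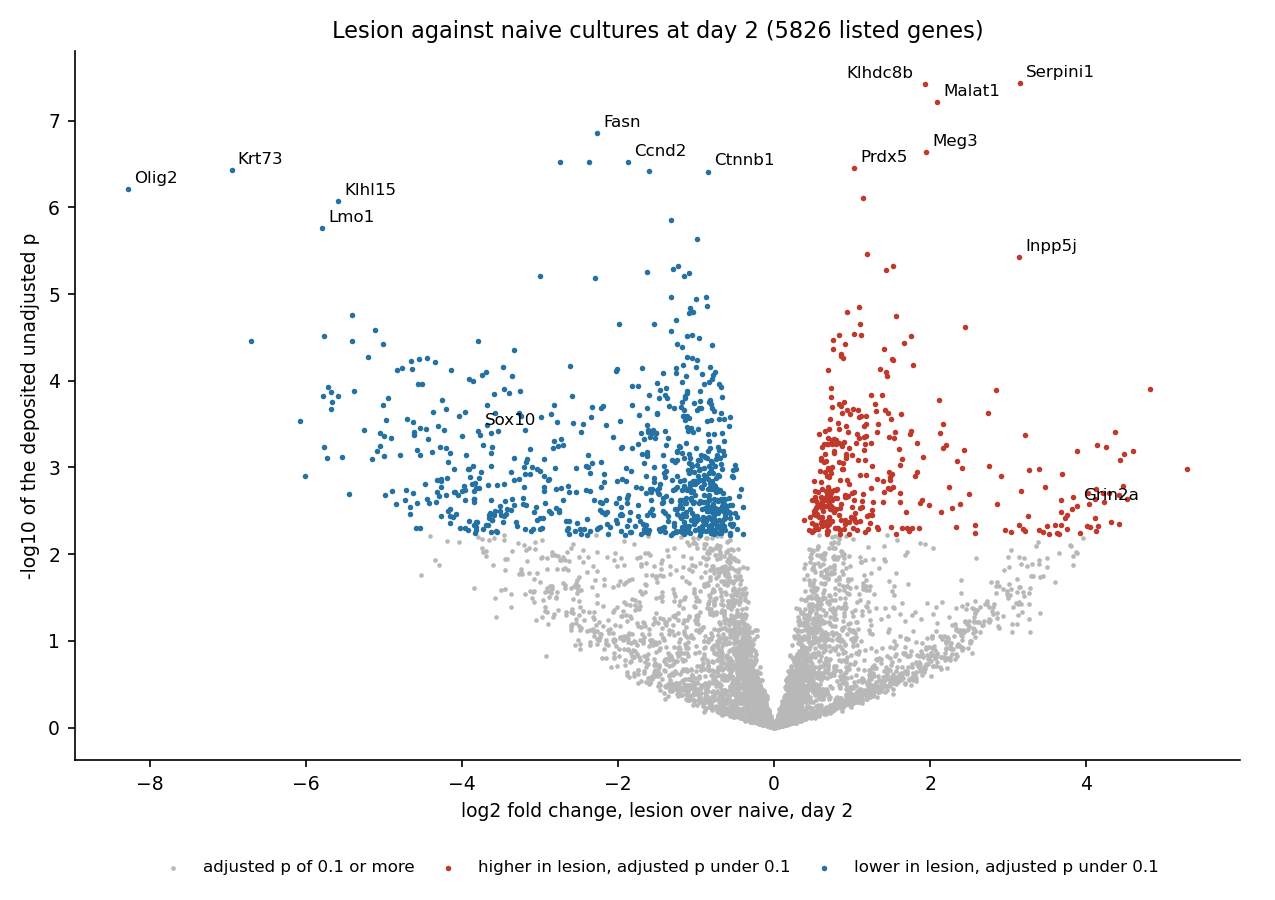
Each point is 1 of the 5826 listed genes, with its log2 fold change of lesion over naive at day 2 on the x axis and -log10 of the authors' unadjusted p on the y axis. Red points rose and blue points fell at an adjusted p under 0.1; the 779 fallen genes reach to -8.29 (Olig2), while the smallest p-values belong to genes that rose, such as Serpini1.

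The size of a change has to be read with the abundance of the gene. The table has an unexplained column of ranks that is low for genes known to be abundant, such as Actb at rank 7, and is taken as an order of mean abundance. Each gene has 1 rank for the whole series, so a rank covers all days and both treatments and does not give the make-up of the day 2 cultures. Among ranks up to 4771, 179 genes rose and 327 fell, with a median implied standard error of 0.233. Among ranks 9543 to 14313, 44 rose and 204 fell, and the median error was 0.943. The named genes with log2 fold changes of -4 and beyond have ranks of 8857 or higher, and their errors are several times that of an abundant gene. Among neuronal markers with a row, Rtn1 had rank 69, the GABA-synthesis gene Gad1 rank 244, the neuronal tubulin Tubb3 rank 321 and the microtubule protein gene Map2 rank 702. Of the 6 genes of cortical glutamatergic neurons with a row, Slc17a6 (13018), Tbr1 (13559) and Neurod6 (15315) stood far lower. Ranks of the others, Etv1 among them, are not given here. Markers of other cells with a row included the astrocyte filament gene Vim at 213, the myelin gene Cnp at 856, the macrophage receptor gene Csf1r at 2651 and the endothelial claudin gene Cldn5 at 6488.

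The smallest adjusted p-values at day 2 belonged to 2 genes that rose. Serpini1 encodes neuroserpin, a protease inhibitor secreted by neurons, and lies on chromosome 3 (mm10, 75557547 to 75643495). It rose by a log2 fold change of 3.15 (implied standard error 0.40, adjusted p = 0.000366) per the authors' deposited table. Klhdc8b, a kelch-repeat gene, rose by 1.94 with an error of 0.24 and the same adjusted p per the authors' deposited table. Malat1, an abundant long noncoding RNA of nuclear speckles (chromosome 19, 5795690 to 5802672), rose by 2.09 (error 0.27, adjusted p = 0.000391) per the authors' deposited table. Other risen genes with small adjusted p-values per the authors' deposited table were the phosphoinositide phosphatase gene Inpp5j (log2 fold change 3.14), the selenoprotein gene Selm (1.43), Gsap (1.52) and the growth factor gene Igf1 (1.20). The largest increases at ranks up to 14313 included mesothelin (Msln, 4.03, error 1.20) and the NMDA receptor subunit gene Grin2a (3.89, error 1.17) per the authors' deposited table.

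Of the genes that fell, 6 shared an adjusted p of 0.000615. They were Krt73, a keratin gene, the fatty acid synthase gene Fasn, the kinesin heavy chain gene Kif5c, the cyclin gene Ccnd2, the citrate lyase gene Acly and the beta-catenin gene Ctnnb1. Their log2 fold changes per the authors' deposited table were -6.96 for Krt73, -2.27 for Fasn, -2.38 for Kif5c, -1.87 for Ccnd2, -1.61 for Acly and -0.85 for Ctnnb1. The largest decrease was that of Olig2 (chromosome 16, 91225457 to 91228677), a transcription factor gene of the oligodendrocyte lineage, at -8.29 (error 1.24, adjusted p = 0.000899) per the authors' deposited table. It was followed by Krt73, by the endothelial proteoglycan gene Esm1 (-6.71, error 1.32) and by the alarmin cytokine gene Il33 (-6.08, error 1.44) per the authors' deposited table. The authors' deposited table gave Lmo1, a LIM-domain transcription regulator, a log2 fold change of -5.79 with an adjusted p of 0.00196.

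Genes were then read by function. For each list the number of members that rose or fell is set against all members of the list, since a member has a row only where it passed on some day. Signs and medians over members with a row are partly set by that selection, here and below, and only describe those rows. Genes of the nuclear-encoded respiratory chain gave the largest share of risen members among the 36 lists: 35 of 79 rose (44.3%, against 1.89% of all genes tested) and none fell. Of the 45 members with a row, 35 of which passed at day 2, 44 had a fold change above 0. Their median log2 fold change was 0.64, against -0.10 over all rows of the authors' deposited table. The changes were even in size, from 0.46 to 1.10 among the risen members per the authors' deposited table. Subunits of complex I made up 18 of them, from Ndufa1 to Ndufv3. Ndufa2 rose by 0.75 (error 0.15, adjusted p = 0.0124) per the authors' deposited table. In complex III, Uqcr10 rose by 0.94 (error 0.17, adjusted p = 0.00822) per the authors' deposited table. The cytochrome oxidase subunit gene Cox6b1 rose by 0.69 (adjusted p = 0.015), and the ATP synthase subunit genes Usmg5 and Atp5j2 rose by 1.10 and 0.85 per the authors' deposited table. The ATP synthase genes Atp5a1 and Atp5b missed the threshold, at -0.01 and 0.07 on the log2 scale per the authors' deposited table. None of the 15 mitochondrially encoded genes has a row.

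Transcription of many respiratory chain genes is known to depend on nuclear respiratory factor 1 (NRF1), which binds GC-rich repeats near their start sites. The letters GCGCANGCG were searched on both strands from 250 bases before to 50 bases after each annotated start (RefSeq promoters, GRCm38.p6). Of 30 risen respiratory chain genes with such a promoter 8 held a match (26.7%), against 22 of all 65 list members with a promoter (33.8%) and 7.03% of 27025 genes. The share of risen members was thus not above that of the whole list. The YY1 core AAGATGGCG was found in 3 of the 30 risen genes (10%), 7 of the 65 list members (10.8%) and 1.64% of all genes. The upstream windows of 3 risen genes are shown, since they carry the palindromic form of the NRF1 match or several matches; capitals mark the match, and the reading runs 5′ to 3′ on the strand of the gene. They are Atp5k (ATP synthase, chr5:108434400-108434509, minus strand), Ndufa11 (complex I, chr17:56717642-56717761, plus strand) and Cox6a1 (cytochrome oxidase, chr5:115349007-115349180, minus strand).
Atp5k: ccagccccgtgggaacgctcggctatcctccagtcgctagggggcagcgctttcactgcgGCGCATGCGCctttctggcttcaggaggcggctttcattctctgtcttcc
Ndufa11: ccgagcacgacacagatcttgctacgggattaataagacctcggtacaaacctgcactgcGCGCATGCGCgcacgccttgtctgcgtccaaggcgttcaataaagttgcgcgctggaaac
Cox6a1: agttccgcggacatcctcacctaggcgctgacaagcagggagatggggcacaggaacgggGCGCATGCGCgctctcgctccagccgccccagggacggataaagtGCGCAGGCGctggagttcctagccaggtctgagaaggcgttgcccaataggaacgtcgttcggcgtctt

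**Figure D2:**
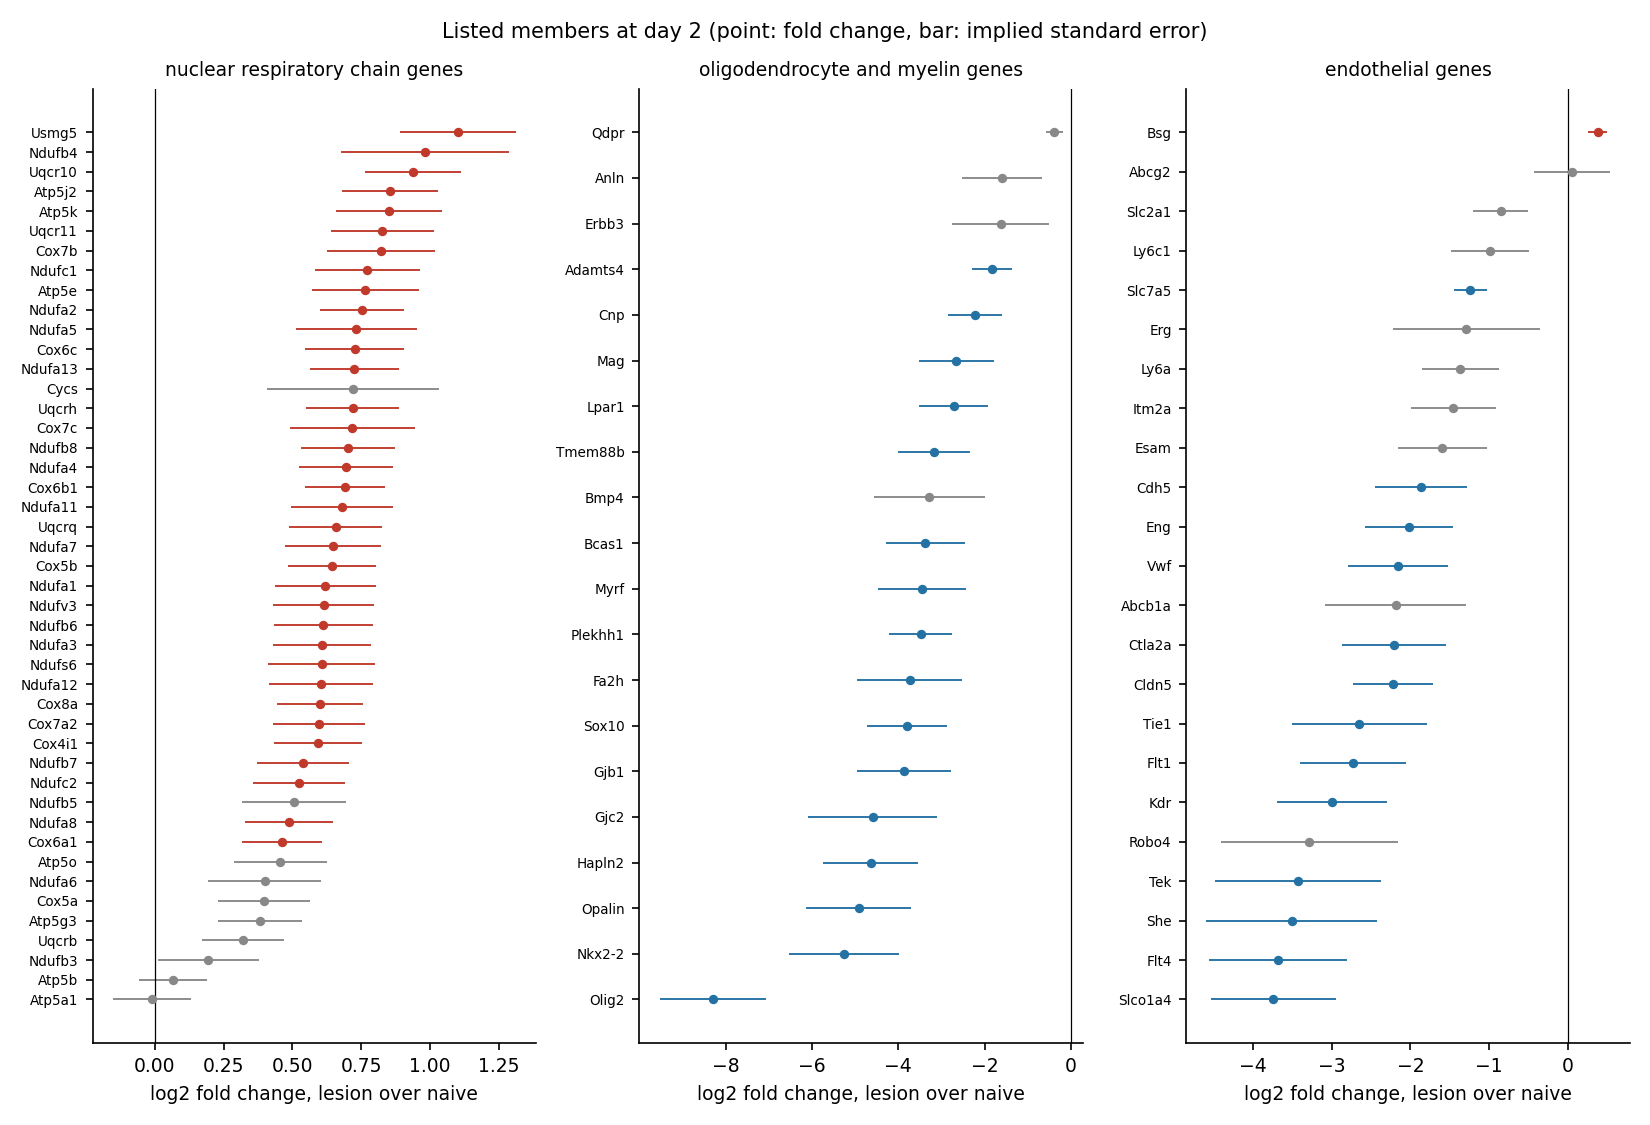
Log2 fold changes of lesion over naive at day 2 (x axes) for every listed member of 3 gene lists, with bars of 1 implied standard error; red members rose, blue members fell and grey members missed an adjusted p of 0.1. Respiratory chain genes (left) lie close together between -0.01 and 1.10, oligodendrocyte genes (middle) spread from -0.39 to -8.29, and endothelial genes (right) run from 0.38 for Bsg to -3.75 for Slco1a4.

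Members of other housekeeping lists also rose. Of 81 cytosolic ribosomal protein genes 9 rose (11.1%) and none fell, with a median of 0.47 over the 23 with a row per the authors' deposited table. Rps19 rose by 0.74, Rpl41 by 0.87 and Rps27l by 0.73 per the authors' deposited table. Of 95 genes of mitochondrial ribosomes and protein import, a group chosen after the values were seen, 6 rose (6.32%), among them Mrpl13 and Tomm7. Of 36 proteasome subunit genes Psma3 and Psma7 rose (5.56%, against 1.89% of all genes tested). Of 41 glutathione and antioxidant genes 7 rose (17.1%) and none fell. Prdx5, a mitochondrial peroxiredoxin gene, rose by 1.03 (error 0.15, adjusted p = 0.000615) per the authors' deposited table. Gpx4, whose product reduces lipid peroxides, rose by 0.85, the quinone reductase gene Nqo1 by 1.61 and the peroxiredoxin gene Prdx1 by 1.39 per the authors' deposited table. An antioxidant response element (TGACNNNGC, both strands) was found in 1 of the 7 risen antioxidant genes (14.3%), 10 of 35 list members with a promoter (28.6%) and 14% of all genes. Of 42 lysosome genes 3 rose (7.14%, against 1.89% of all genes tested). They were the proton pump subunit genes Atp6v1f (0.75) and Atp6v0b (0.52) and the cathepsin gene Ctsf (0.92) per the authors' deposited table. Of 23 glycolysis genes 3 rose (Eno2, Ldha and Pfkp, 13%) and 1 fell (4.35%, near the 4.08% of all genes tested). The fallen gene was Pfkfb3, whose product raises glycolytic flux, at -1.09 per the authors' deposited table.

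The genes that rose had shorter transcripts than the others at ranks up to 9542. Taking the longest annotated protein-coding transcript of each gene (GENCODE vM21), the median length at ranks up to 4771 was 1.25 kb for the 167 protein-coding genes that rose, 4.12 kb for the 319 that fell and 3.28 kb for the 1497 that were listed but not called at day 2. With the median over each gene's transcripts, which was computed first, the 3 values were 0.861, 2.86 and 2.12 kb. At ranks 9543 to 14313 the longest transcript had a median of 3.38 kb for 31 risen, 3.58 kb for 191 fallen and 3.23 kb for 902 uncalled genes. There the risen genes were slightly shorter than the fallen ones and not shorter than the uncalled ones. With the median over each gene's transcripts the 3 values were 2.82, 2.82 and 2.38 kb. By the longest transcript, 70 of 169 listed genes under 1 kb at ranks up to 9542 rose and 1 fell. Among those of 4 to 6 kb 23 of 809 rose and 187 fell. By the median transcript, 113 of 642 genes under 1 kb rose and 69 fell, and 15 of 498 of 4 to 6 kb rose and 125 fell. The near absence of fallen short genes thus held only for the longest transcript. Respiratory chain genes with a row had a median length of 0.73 kb and ribosomal protein genes 1.01 kb. Of the genes under 1 kb by the longest transcript and outside the respiratory chain, both ribosome lists and the proteasome, 33 of 117 rose (28.2%) and 1 fell. For members of those 4 lists it was 37 of 52 (71.2%) and none. The mitochondrial ribosome list was chosen after the values were seen. The part of length in the rise of these lists was not tested.

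**Figure D3:**
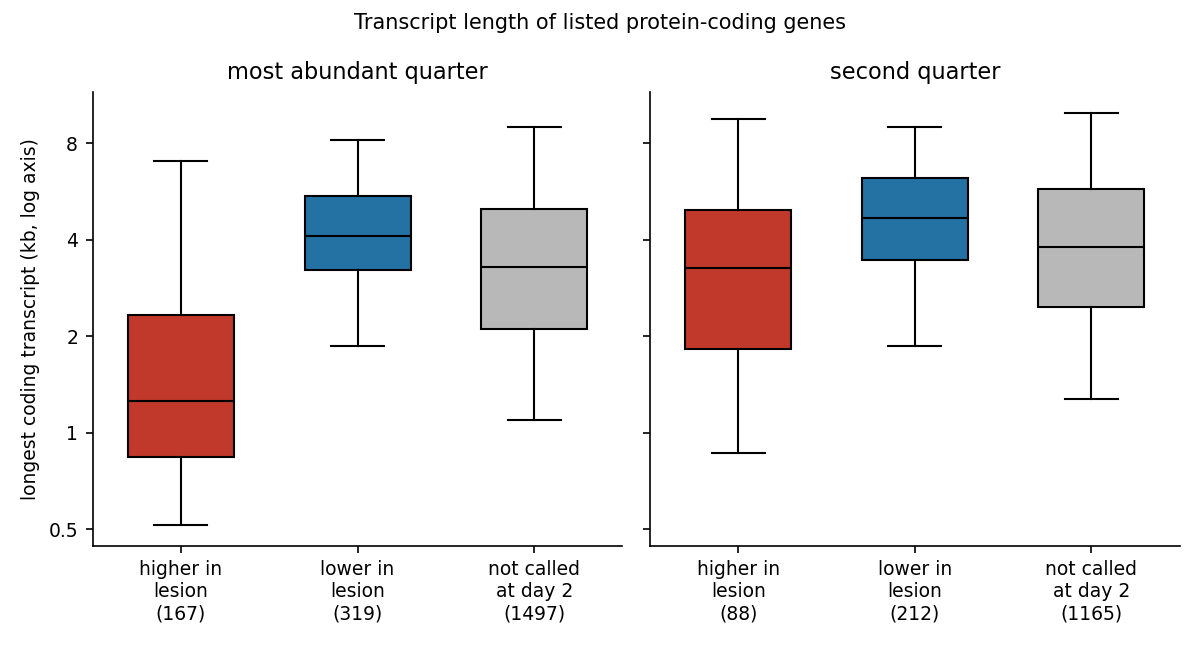
Length of the longest protein-coding transcript (y axis, kb, log scale) of listed genes that were higher in lesion, lower in lesion or not called at day 2, at ranks up to 4771 (left) and 4772 to 9542 (right); boxes show the quartiles and whiskers the 5th and 95th percentiles. In the left panel the medians are 1.25 kb, 4.12 kb and 3.28 kb, and in the right panel 3.26 kb, 4.69 kb and 3.79 kb.

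Oligodendrocyte and myelin genes had the largest share of fallen members among the 36 lists: 16 of 40 fell (40%, against 4.08% of all genes tested) and none rose. All 20 members with a row, 16 of which passed at day 2, had a fold change below 0. Their median log2 fold change was -3.41 per the authors' deposited table. Beside Olig2, the lineage transcription factor genes Nkx2-2, Sox10 and Myrf fell, with log2 fold changes of -5.26 (error 1.27), -3.80 (error 0.92) and -3.45 (error 1.02) per the authors' deposited table. Opalin, a myelin protein gene, was at -4.92, the hyaluronan-link gene Hapln2 at -4.64, the connexin gene Gjb1 at -3.87, the myelin adhesion gene Mag at -2.66 and Cnp, which encodes a phosphodiesterase of myelin, at -2.22 per the authors' deposited table, and each of them fell. The other 20 members, the myelin genes Mbp and Mog among them, have no row and were not analysed here. Of 20 precursor genes 2 fell (10%), Olig2 (on both lists) and Tmem100, while the precursor receptor gene Pdgfra was at -0.01 (error 1.11) and the proteoglycan gene Cspg4 at 0.07 (error 0.45) per the authors' deposited table. In bulk samples, fewer cells of a type and less RNA per cell cannot be told apart.

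Of 40 endothelial genes 13 fell (32.5%, against 4.08% of all genes tested) and 1 rose (2.5%, near the 1.89% of all genes tested). The vascular growth factor receptor genes Kdr and Flt4 fell, with log2 fold changes of -2.99 (adjusted p = 0.0236) and -3.68 (adjusted p = 0.0263) per the authors' deposited table. The tight junction gene Cldn5 fell by 2.22, the vessel transporter gene Slco1a4 by 3.75 and the vascular cadherin gene Cdh5 by 1.87 per the authors' deposited table. Slc7a5, an amino acid transporter of vessels that many cells use, fell by 1.24, and Bsg, which neurons and glia also express, rose by 0.38 per the authors' deposited table. The basement membrane collagens Col4a1 (-1.96) and Col4a2 (-1.90), which vessel cells make, also fell per the authors' deposited table. Of 16 erythroid genes, a group chosen after the values were seen, 4 fell (25%, against 4.08% of all genes tested). Among them were the globin genes Hba-a1 (-5.72, error 1.25) and Hbb-b1 (-3.95, error 1.02) per the authors' deposited table. Globin gene copies are near-identical, so reads could be split between them.

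Of 30 astrocyte genes 1 fell (3.33%, near the share of all genes tested), the intermediate filament gene Nes (-1.63, adjusted p = 0.0222 per the authors' deposited table), which progenitors and vessel cells express too. The astrocyte filament gene Gfap was at 1.77 (error 0.96) and the connexin gene Gja1 at 0.004 (error 0.57) per the authors' deposited table, and neither passed. Of 24 mural and fibroblast genes 1 fell (Fn1, -1.60 per the authors' deposited table), a share of 4.17% that is near that of all genes tested. Of 32 microglia and macrophage genes 2 fell (6.25%), Mrc1 (-3.42, error 1.04) and Cd74 (-1.64, error 0.54), while 4 of the 7 with a row lay above 0 with a list median of 0.60 per the authors' deposited table, and Csf1r was at -0.12 (error 0.41).

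Neuronal markers moved in both directions. Of 28 pan-neuronal genes 4 rose and 4 fell (14.3% each), with a median log2 fold change of 0.01 over the 19 with a row per the authors' deposited table. The noncoding RNA gene Meg3 (1.95), the secretogranin gene Scg2 (0.93), the neuronal enolase gene Eno2 (0.88) and Snhg11 (3.27) rose per the authors' deposited table. Tubb3 (-1.18), the migration and growth gene Dcx (-0.86), the RNA-binding gene Elavl2 (-1.41) and the neurofilament gene Nefm (-2.97) fell per the authors' deposited table. Of 28 GABAergic genes 3 rose (10.7%) and 1 fell (3.57%, near the 4.08% of all genes tested). Gad1 (1.06), Adarb2 (1.44) and Dlx6 (1.61) were higher and Dlx2 (-1.03) was lower per the authors' deposited table. Gad2 was at 0.15 (error 0.27) and the vesicular GABA transporter gene Slc32a1 at 0.34 (error 0.30) per the authors' deposited table, so that these defining genes did not pass. Of 28 glutamatergic genes 4 fell (14.3%) and none rose. They were Slc17a6 (-5.00), Tbr1 (-3.55), Neurod6 (-3.30) and Etv1 (-1.17) per the authors' deposited table. The first 3 have low abundance ranks and errors of 1.06 to 1.29. Of 38 glutamate and GABA receptor genes 3 rose (7.89%) and none fell. They were the AMPA receptor gene Gria2 (0.79), the kainate receptor gene Grik1 (1.00) and Grin2a per the authors' deposited table. Of 43 synaptic genes 2 fell (Syt4 and Syt11), a share of 4.65% that is near the 4.08% of all genes tested. Of 45 ion channel genes 1 rose, Cacna1c, and 1 fell (2.22% each, against 1.89% and 4.08% of all genes tested).

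**Figure D4:**
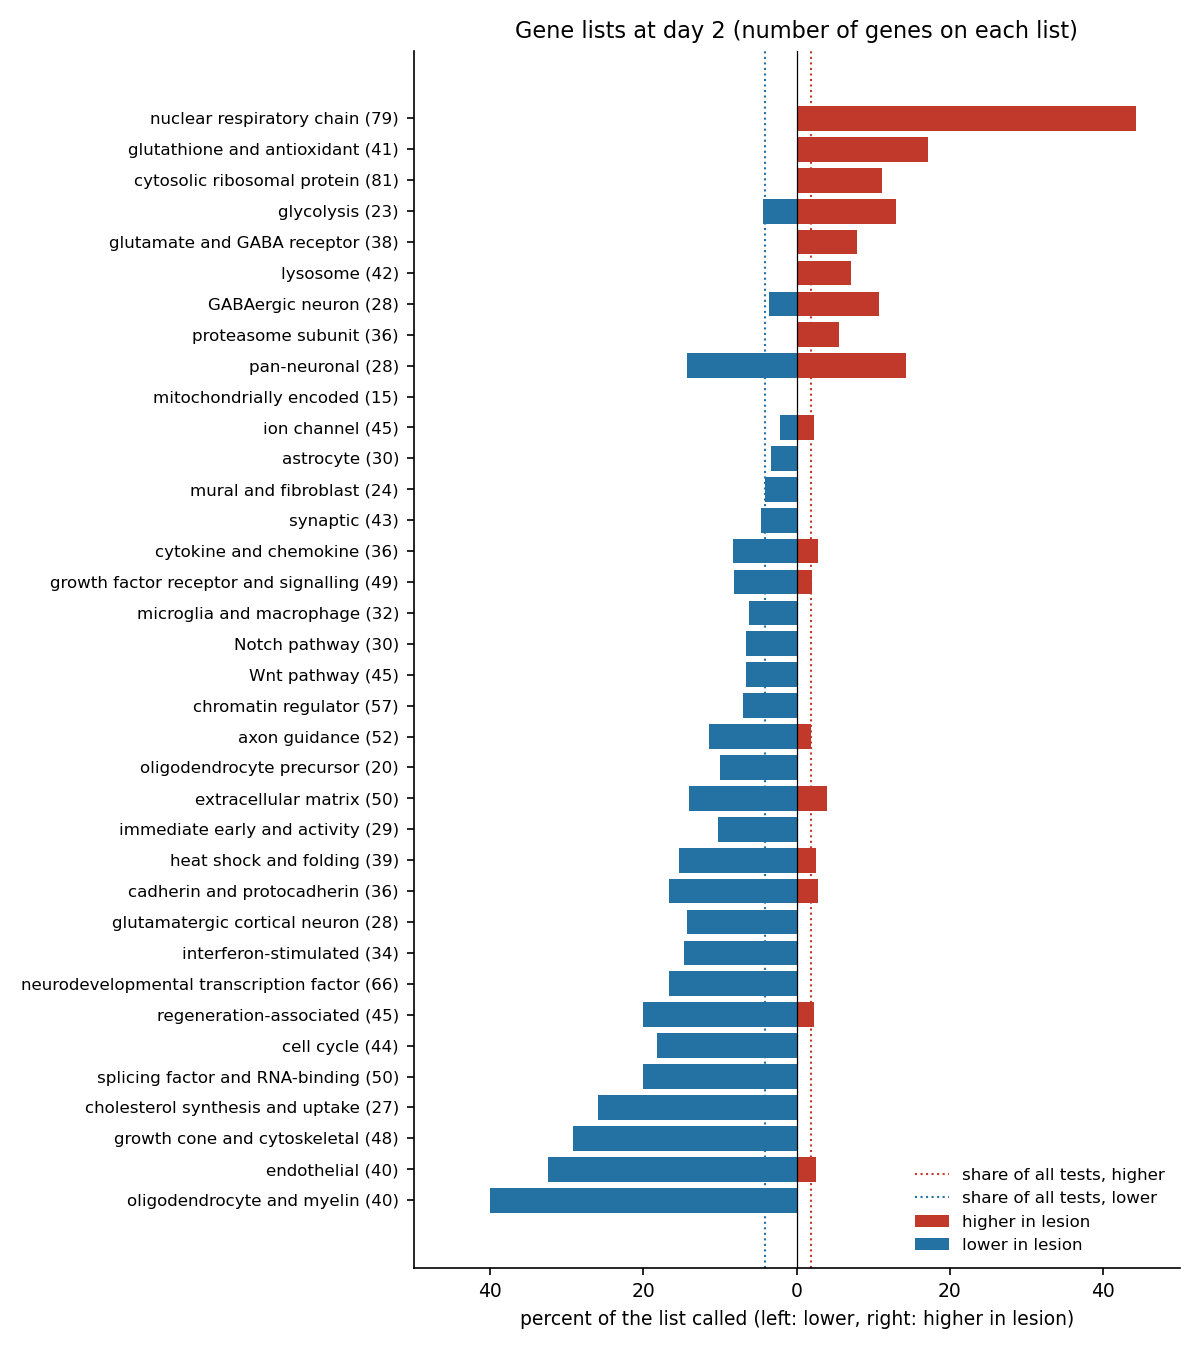
Share of each of the 36 gene lists (y axis, number of genes in brackets) whose members rose (red, right) or fell (blue, left) at day 2, in percent of the list. Dotted lines mark the shares over all 19085 genes tested, 1.89% risen and 4.08% fallen; the respiratory chain (44.3% risen) and oligodendrocyte lists (40% fallen) stand at the ends.

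Of 48 growth cone and cytoskeletal genes 14 fell (29.2%, against 4.08% of all genes tested) and none rose. The median was -0.54 over the 36 with a row per the authors' deposited table. The microtubule gene Tuba1a fell by 1.05 (error 0.20), the tubulin gene Tubb4a by 1.09 (error 0.19) and Actg1 by 0.87 (error 0.16) per the authors' deposited table. The growth cone genes Map1b (-0.82) and Dpysl2 (-1.13), whose products bind microtubules and tubulin, fell too per the authors' deposited table. The growth cone membrane genes Gap43 (0.33, error 0.29) and Basp1 (-0.003, error 0.20) missed the threshold in the authors' deposited table. Over 19 tubulin genes 6 fell (31.6%, against 4.08% of all genes tested), with the broadly expressed Tubb5 at -1.32 (adjusted p = 0.00168) per the authors' deposited table. Tuba1a and Tubb4a count among these tubulins too. Of 41 kinesin genes 7 fell (17.1%). Among them were Kif5a (-1.11), Kif5b (-0.50) and Kif5c, the heavy chains of the main anterograde motor, per the authors' deposited table. Both groups were chosen after the values were seen.

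Of 45 regeneration-associated genes 9 fell (20%, against 4.08% of all genes tested) and 1 rose (2.22%, near the 1.89% of all genes tested). The transcription factor genes Sox11 (-1.32, adjusted p = 0.0108) and Jun (-1.24, adjusted p = 0.0563) fell, as did Gdnf, the gene of a neurotrophic factor (-5.41, error 1.07), and the growth regulator gene Mtor (-1.02) per the authors' deposited table. Lgals1, the gene of galectin 1, rose by 0.94 per the authors' deposited table (adjusted p = 0.0511). The injury factor gene Atf3 was at -0.34 (error 0.40) and the neuropeptide gene Gal at 0.12 (error 1.32) per the authors' deposited table. Of 29 immediate early and activity genes Arc (-1.70), Jun and Gadd45b (-1.43) fell per the authors' deposited table (10.3%, against 4.08% of all genes tested). Of 49 growth factor receptor and signalling genes 4 fell (8.16%, against 4.08% of all genes tested) and 1 rose (2.04%, near the 1.89% of all genes tested). The receptor genes Igf1r (-1.08) and Bmpr2 (-1.51) were among the fallen, and Igf1 rose per the authors' deposited table. Ligand and receptor of this pair thus moved in opposite directions.

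Of 27 cholesterol synthesis and uptake genes 7 fell (25.9%) and none rose, and all 11 with a row had a fold change below 0 (median -0.79 per the authors' deposited table). Hmgcs1, which commits acetyl groups to the pathway, fell by 1.04 (error 0.19, adjusted p = 0.00822) per the authors' deposited table. The squalene epoxidase gene Sqle fell by 0.97 per the authors' deposited table. Of 26 fatty acid synthesis genes 5 fell (19.2%, against 4.08% of all genes tested) and none rose. They were Acly, Fasn, the desaturase gene Scd2 (-1.39), the acyl-CoA ligase gene Acsl3 (-1.38) and Aacs (-0.70) per the authors' deposited table. Of 27 amino acid response genes 9 fell (33.3%), with the transporter gene Slc7a1 at -0.90 and the aminotransferase gene Gpt2 at -1.26 per the authors' deposited table. Of 20 aminoacyl-tRNA synthetase genes 5 fell (25%), with Aars at -0.76 and Tars at -0.72 per the authors' deposited table. The fatty acid, amino acid response and synthetase groups were chosen after the values were seen. A sterol response element (TCACNCCAC, both strands) was found in 1 of the 2 fallen cholesterol genes with a promoter in RefSeq, in 1 of the 19 list members with one (5.26%) and in 1.44% of all genes; it lies in the window of Hmgcs1 at chr13:119690154-119690282 (plus strand), printed with the match in capitals because this gene has the smallest adjusted p of the list.
Hmgcs1: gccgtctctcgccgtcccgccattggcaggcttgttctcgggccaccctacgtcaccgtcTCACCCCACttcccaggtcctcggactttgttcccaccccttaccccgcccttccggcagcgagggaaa

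Of 27 genes for CLK kinases and SR-related proteins of the nuclear speckle, where splicing factors are stored, 14 rose (51.9%) and none fell. The kinase gene Clk1 rose by 1.08 (adjusted p = 0.00784), the arginine and serine rich gene Rsrp1 by 1.13 (adjusted p = 0.00106), Luc7l3 by 1.12, Arglu1 by 1.01 and the scaffold gene Son by 0.65 per the authors' deposited table. Of 21 hnRNP genes, whose products coat nascent transcripts, 8 fell (38.1%) and none rose, with Hnrnph2 at -0.87, Hnrnpu at -0.80 and Hnrnpab at -0.71 per the authors' deposited table. On the list of splicing factors and RNA-binding proteins 10 of 50 fell (20%) and none rose, among them Celf1 (-0.69) and the core spliceosome gene Prpf8 (-0.75) per the authors' deposited table. Of 30 long noncoding RNA genes 10 rose (33.3%, against 1.89% of all genes tested) and 1 fell (3.33%, near the 4.08% of all genes tested). Beside Malat1 and Meg3, Kcnq1ot1 (1.67) and the snoRNA host gene Gas5 (0.89) rose, and Peg13 fell by 0.64 per the authors' deposited table. The speckle, hnRNP and noncoding groups were chosen after the values were seen.

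Of 66 neurodevelopmental transcription factor genes 11 fell (16.7%) and none rose, with Pou3f1 at -3.80 (adjusted p = 0.0114) and the ciliary regulator gene Foxj1 at -5.05 (error 1.27) per the authors' deposited table. Of 36 cadherin and protocadherin genes 6 fell (16.7%) and 1 rose (2.78%, near the 1.89% of all genes tested). The neural cadherin gene Cdh2 fell by 1.18 and Pcdh7 rose by 0.74 per the authors' deposited table. Of 52 axon guidance genes 6 fell (11.5%) and 1 rose (1.92%, near the 1.89% of all genes tested). Sema5a was at -3.00 (error 0.52, adjusted p = 0.00427), Epha4 at -3.28 and Epha3, which rose, at 1.76 per the authors' deposited table. Notch and Wnt lists were near the 4.08% of all genes tested, at 6.67% fallen each. Of 30 Notch pathway genes Notch1 (-1.51) and Mfng fell, and of 45 Wnt pathway genes Ctnnb1, Wnt7b (-5.05, error 1.23) and Lef1 (-2.18) fell per the authors' deposited table. Of 57 chromatin regulator genes 4 fell (7.02%) and 16 of the 33 with a row lay above 0, with the DNA methyltransferase gene Dnmt1 at -1.24 per the authors' deposited table. Of 50 extracellular matrix genes 7 fell (14%) and 2 rose, and 20 of the 40 with a row lay above 0; the protease inhibitor gene Timp1 rose by 2.13 and the perineuronal link protein gene Hapln1 by 2.58 per the authors' deposited table.

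Among 44 genes of the cell cycle 8 fell (18.2%) and none rose, with Ccnd2 first and the replication gene Mcm7 at -1.06 per the authors' deposited table. The mitotic genes Aurkb (-4.29, error 1.08) and Kif20a (-2.96, error 0.77) are of low abundance and fell too per the authors' deposited table. Of 34 interferon-stimulated genes 5 fell (14.7%) and none rose, and all 13 with a row were below 0; Oasl1 was at -5.41 (error 1.01, adjusted p = 0.00849) and Rsad2 at -3.96 (error 0.91, adjusted p = 0.0229) per the authors' deposited table. An interferon-stimulated response element (GAAANNGAA, both strands) was found in 3 of the 4 fallen members with a promoter (75%), 14 of the 27 list members with one (51.9%) and 9.76% of all genes. Of 36 cytokine and chemokine genes 3 fell (8.33%, against 4.08% of all genes tested) and 1 rose (2.78%, near the 1.89% of all genes tested). Il33, Ccl7 (-4.47) and Cxcl12 (-1.64) fell and Cxcl14 rose by 1.70 per the authors' deposited table. Of 39 heat shock and folding genes 6 fell (15.4%) and 1 rose (2.56%, near the 1.89% of all genes tested). Hsph1 (-1.12) and Hspa1b (-2.39) fell, while the regulator gene Hsf1 rose by 0.88 per the authors' deposited table. Hspa1b has a near-identical copy, Hspa1a, at -1.76 (error 0.64) per the authors' deposited table, so its reads may be split. Of 9 guanylate cyclase subunit genes, chosen after the values were seen, 2 rose (22.2%) and 1 fell (11.1%), against 1.89% and 4.08% of all genes tested. Gucy1a3 (1.15) and Gucy1b3 (1.08), which form the main nitric oxide receptor, rose and Gucy1b2 fell per the authors' deposited table.

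The other days put these changes in time. Of the 1140 genes that passed at day 2 (5.97% of the genes tested), 651 passed on no other day. Missing the threshold on another day is not a difference between days. In the test below 431 of the 1140 differed from the mean of the other days, and 0 genes differed between days 2 and 3. Each day has its own libraries. With day 1, where 118 genes passed (0.618% of the genes tested), 19 were shared (1.67% of the day 2 genes, 16.1% of the day 1 genes), 8 in the same direction and 11 in the opposite one. With day 3, where 282 passed (1.48%), 147 were shared (12.9% of the day 2 genes, 52.1% of the day 3 genes), 146 of them in the same direction. With day 5, where 4575 passed (24%), 366 were shared (32.1% of the day 2 genes, 8% of the day 5 genes), 149 in the same and 217 in the opposite direction. With day 7, where 781 passed (4.09%), 72 were shared (6.32% of the day 2 genes, 9.22% of the day 7 genes), 18 in the same and 54 in the opposite direction. The genes that rose at day 2 had a median log2 fold change of -0.14 at day 1, 0.66 at day 3, -0.37 at day 5 and -0.09 at day 7 per the authors' deposited table, and those that fell had 0.20, -0.84, -0.08 and 0.20.

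The difference between day 2 and the other days was tested for each gene from the implied standard errors, with p-values adjusted over all 19085 tests by the Benjamini-Hochberg method. Against the mean of the other 4 days 556 genes differed (2.91% of the genes tested), 182 with a higher and 374 with a lower fold change at day 2, and 431 of them were among the 1140. The count was 1283 without day 3, 345 without day 5 and 192 without day 7, so it depends on which days form the mean. Against day 1 alone 554 differed (2.9%), and against day 3 alone 0 (0% of the genes tested) passed, with 555 at an unadjusted p under 0.05. Of the 79 respiratory chain genes 31 had a higher fold change at day 2 than over the other days, and 23 a higher one than at day 1. Of all genes tested 2.91% and 2.9% differed in these tests, in either direction. Many list members with a row passed at day 2 (35 of 45 here), which favours such differences. Uqcr10 had log2 fold changes of -0.48 at day 1, 0.94 at day 2, 0.31 at day 3, -0.11 at day 5 and -0.20 at day 7 per the authors' deposited table (difference of day 2 from the mean of the others 1.06, adjusted p = 0.0101). Of the 48 growth cone and cytoskeletal genes 18 had a lower fold change at day 2 than at day 1, where 3 of the list had passed as higher in lesion cultures. Map1b was at 1.10 at day 1 and -0.82 at day 2 per the authors' deposited table, and the 2 days differed with an adjusted p of 0.00374. For Dcx the values were 1.02 and -0.86 per the authors' deposited table (adjusted p of the difference 0.0058). Malat1 was at 0.68 at day 1, 2.09 at day 2, 0.52 at day 3, -1.72 at day 5 and -0.50 at day 7 per the authors' deposited table, and its day 2 value differed from the mean of the others by 2.35 (adjusted p = 0.000564).

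Olig2 was at -1.18 at day 1, -8.29 at day 2, -7.97 at day 3, 0.93 at day 5 and -0.71 at day 7 per the authors' deposited table. Day 2 differed from the mean of the other days for 3 of the 40 oligodendrocyte genes and for 1 of the 40 endothelial genes in the lower direction. Of all genes tested 2.91% differed in either direction. The cell cycle gene Ccnd2 was at -1.87 at day 2 and 1.36 at day 5 per the authors' deposited table. Of the 44 cell cycle genes 14 had a lower fold change at day 2 than over the other days. On the same list 34 genes passed as higher in lesion cultures at day 5 and 9 at day 7. The median over its 37 members with a row was -1.32 at day 2, 2.96 at day 5 and 1.53 at day 7 per the authors' deposited table. Later increases thus enter this difference beside the day 2 values. Cholesterol genes were lower at day 2 than over the other days in 6 of 27 cases, and Fasn differed by -2.45 (adjusted p = 0.0014).

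**Figure D5:**
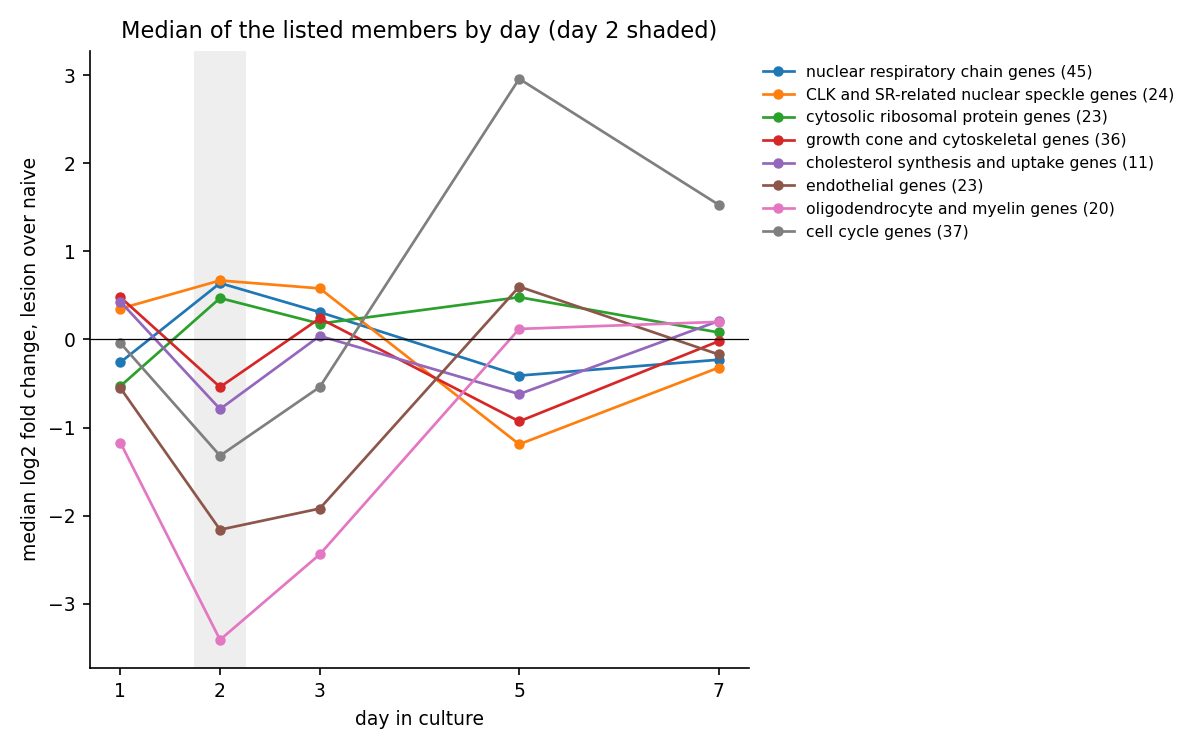
Median log2 fold change of lesion over naive (y axis) of the listed members of 8 gene groups at days 1, 2, 3, 5 and 7 in culture (x axis), day 2 shaded, with the number of members in brackets. At day 2 the medians run from -3.41 for oligodendrocyte genes to 0.67 for the nuclear speckle group, which was chosen after the values were seen. The respiratory chain (0.64) is below 0 at days 1, 5 and 7. Many listed members passed at day 2, so the day 2 medians are partly set by that selection.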

How the data were processed

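RNA of the cultures was made into libraries with an ultra-low input kit and sequenced on a HiSeq4000, per the labels' protocols. STAR and the mm10 build are named per the submitters' processing notes. How reads were counted, filtered and scaled, and whether strand was used, is not given in the sources used here. Per the file headers, the authors deposited a log2 fold change, a p-value and an adjusted p-value for each gene and day; the deposited file's name gives voom, limma and the limit of 0.1. Its rank column is a score with no unit in the deposited file. With no counts per library, the depth and the precision it gives are unknown and nothing was refitted. Adjusting the p-values again over 19085 tests gave the deposited day 2 values, with a largest relative deviation of 7.95e-13.

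Computed here (Python 3.11.15, scipy 1.17.1, pandas 2.3.3) were implied standard errors from the t distribution with 24 degrees of freedom, the value at which the errors of days 2 and 3 matched best at ranks up to 4771 (SD of the log ratio 0.056); 29 libraries less 10 group means leave 19. Differences between days used these errors as a t statistic with Benjamini-Hochberg adjustment over 19085 tests, unlisted genes counting as uncalled, which makes each count a lower bound; the step was tested on simulated data. Symbols of 3 list genes were matched through synonyms, and 3 fallen rows carry a date in place of a symbol.

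The comparison, its 36 gene lists and all rules were chosen with earlier results of these data known, and 11 further groups after the values were seen. Named genes are the 12 highest and 12 lowest fold changes and 12 smallest adjusted p-values per direction at day 2 (predicted genes and ranks above 14313 left out) and up to 5 called members per list and direction. Chosen after their values were seen were Mag, Cnp, Myrf, Opalin, Gjb1, Cdh5, Map1b, Dpysl2 and Mtor, the promoters printed and genes given only as values. Transcript length was first the median and then the longest protein-coding transcript of GENCODE vM21. Some members of the lists are counted but not reported here by name.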

Additional observations from a re-analysis of the deposited data

Results flagged for a closer look

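For 556 genes the lesion over naive fold change at day 2 differed from the mean of the other 4 days at an adjusted p under 0.1, in a test on implied standard errors adjusted over 19085 tests by the Benjamini-Hochberg method. Leaving out day 3, 5 or 7 gave 1283, 345 or 192 genes. Changes on the other days enter the difference too. Aurkb, for example, was at -4.29 at day 2, 5.14 at day 5 and 6.435 at day 7 per the authors' deposited table. Against day 3 alone 0 genes differed, so these genes are not shown to differ from that day. Lmo1, for example, was at -5.79 at day 2 and -6.27 at day 3 per the authors' deposited table. Genes named above that passed with all 4 days are given with the difference, day 2 minus the mean of the other days.

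The day 2 fold change stood above the other days by 2.05 for Adarb2, 0.93 for Arglu1, 0.99 for Atp5j2, 1.00 for Atp5k, 0.67 for Atp6v0b, 0.89 for Atp6v1f, 0.58 for Bsg, 1.32 for Clk1 and 0.85 for Cox6b1 on the log2 scale. Further differences were 1.98 for Dlx6, 1.24 for Gad1, 0.91 for Gas5, 0.90 for Gpx4, 4.84 for Grin2a, 1.63 for Gsap, 1.39 for Gucy1a3, 1.08 for Igf1 and 2.77 for Inpp5j. There followed 1.71 for Kcnq1ot1, 2.02 for Klhdc8b, 1.31 for Luc7l3, 2.35 for Malat1, 1.90 for Meg3, 0.89 for Ndufa2, 1.09 for Prdx5, 0.69 for Psma3 and 0.96 for Rpl41. The test also passed with 0.81 for Rps19, 0.71 for Rps27l, 1.40 for Rsrp1, 1.54 for Selm, 3.11 for Serpini1, 0.84 for Son, 1.06 for Uqcr10 and 1.24 for Usmg5.

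Among genes lower at day 2 than over the other days, the difference was -0.92 for Aacs, -0.71 for Aars, -1.63 for Acly, -1.21 for Acsl3, -1.02 for Actb, -0.80 for Actg1, -1.41 for Arc, -6.27 for Aurkb and -1.67 for Bmpr2 on the log2 scale. Next came -2.37 for Ccnd2, -1.33 for Cdh2, -3.10 for Col4a1, -2.96 for Col4a2, -0.86 for Ctnnb1, -0.95 for Dcx, -1.17 for Dnmt1, -1.12 for Dpysl2 and -4.15 for Epha4. After these stood -6.81 for Esm1, -2.45 for Fasn, -2.94 for Fn1, -4.70 for Foxj1, -4.72 for Gdnf, -1.34 for Gpt2, -4.23 for Hapln2, -6.86 for Hba-a1 and -4.02 for Hbb-b1. Differences below 0 were also found, with -0.98 for Hmgcs1, -0.82 for Hnrnpab, -0.84 for Hnrnph2, -0.87 for Hnrnpu, -5.56 for Il33, -3.60 for Kif20a, -2.21 for Kif5c and -7.28 for Krt73. To these came -2.32 for Lef1, -4.62 for Lmo1, -0.98 for Map1b, -1.66 for Nes, -1.85 for Notch1, -3.93 for Oasl1, -6.06 for Olig2 and -4.35 for Rsad2. Also past the threshold were -1.84 for Scd2, -3.40 for Sema5a, -1.04 for Slc7a1, -1.24 for Slc7a5, -1.24 for Sox11, -0.91 for Sqle, -0.89 for Tars, -5.36 for Tmem100 and -1.07 for Tuba1a. The list ran on with -1.05 for Tubb4a, -1.69 for Tubb5 and -5.24 for Wnt7b.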

How the results depend on the processing

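The 361 risen and 779 fallen genes became 159 and 352 at an adjusted p under 0.05, 14 and 30 at 0.01, and 9 and 14 with Bonferroni adjustment. With a log2 fold change of at least 1 as a further condition 193 rose, and at ranks above 9542, 87 rose and 234 fell. The 556 genes that differed from the other days became 301 at 0.05, 1423 when adjusted over the table's rows alone, 1283 without day 3, 345 without day 5, 192 without day 7 and 0 against day 3 alone; days 3, 5 and 7 thus move the count by over 1.5 times, and the cause was not tested. Of the 36 lists or groups with at least 3 members called in 1 direction and unequal counts in the 2 directions, the majority direction was kept by 32 at 0.05, 18 at 0.01, 13 with Bonferroni adjustment and 15 at ranks above 9542. Of 268 called named genes 157 passed at 0.05 and 33 at 0.01. The limit to ranks above 9542, single-day contrasts, the length definition and 37 degrees of freedom were chosen after seeing the data. No paired analysis was possible because the columns carry comparisons and no values per library, and for the same reason no library could be left out. Depth is unknown, so a gene past no threshold is not shown to be unchanged.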
